A study of Mus musculus with 3 samples.

Results

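The 10 genes described here encode the machinery that presents peptides on MHC class II molecules: the invariant chain Cd74, the classical chains H2-Aa, H2-Ab1 and H2-Eb1, the peptide editors H2-DMa, H2-DMb1 and H2-DMb2, the editor inhibitors H2-Oa and H2-Ob, and Ciita, the coactivator that switches the class II genes on. They were chosen by gene symbol, and all 10 were found among 55536 gene entries, of which 20476 had a count in any library. The cells were macrophages derived from C57BL/6J mouse bone marrow, stimulated at 100 ng/mL for 480 minutes and profiled by sequencing of polyadenylated RNA. The labels disagree on the stimulus, which is lipid A (the lipid part of bacterial endotoxin) in the sample descriptions and lipoprotein A in the treatment fields. There were 3 libraries in 1 group, labelled biological replicates 1, 2 and 3, and no unstimulated library was analysed here, so each value describes the stimulated state and none describes a response. The 3 libraries carry separate sample identifiers and a shared donor identifier, and sex and age were not collected. Whether each came from its own mouse or culture is not stated, so the spread between them, and any p-value that rests on it, may be technical. Gene-level totals were 26589042, 34344922 and 48356527 expected counts in replicates 1, 2 and 3. Replicate 2 stood apart in neutrophil genes, so the results that rest on it are also given without it.

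MHC class II molecules are pairs of an alpha and a beta chain that carry peptides from endocytosed material to the cell surface for recognition by CD4+ T cells. The chains assemble on the invariant chain, which fills the peptide groove until proteases in endosomes trim it, and H2-DM then exchanges the remaining fragment for other peptides. H2-O restrains H2-DM, mostly in B cells and some dendritic cells. Transcription depends on the X and Y boxes upstream of each class II gene, which the RFX complex, CREB proteins and NF-Y occupy and to which CIITA is recruited without binding DNA itself. Macrophages are known to make class II in response to interferon gamma, through CIITA.

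The X and Y box stretches of the class II promoters are shown first, because the levels below differ widely between genes that share this layout. RefSeq promoter windows, from 250 bases before to 50 bases after each start on GRCm38.p6, matched 7 of the 10 genes. Cd74, H2-Ab1 and Ciita were not matched. Capitals mark an AAC at the left side of the X box and the Y box letters TGATTGG, and each line reads 5′ to 3′ on the strand of the gene.
H2-Aa: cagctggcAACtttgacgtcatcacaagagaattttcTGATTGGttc
H2-Eb1: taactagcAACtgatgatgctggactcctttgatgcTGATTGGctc
H2-DMb2: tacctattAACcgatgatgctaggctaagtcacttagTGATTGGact
H2-DMb1: tacctagtAACtgatgatgctag
H2-Oa: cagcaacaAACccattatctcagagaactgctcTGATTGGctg
H2-Ob: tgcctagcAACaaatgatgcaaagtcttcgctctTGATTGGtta
The H2-Aa stretch lies at chr17:34287864-34287910 on the minus strand. The others lie on the plus strand, H2-Eb1 at chr17:34305770-34305815, H2-DMb2 at chr17:34145120-34145166, H2-Oa at chr17:34092301-34092343 and H2-Ob at chr17:34238812-34238855. The H2-DMb1 stretch, at chr17:34153091-34153113, is cut before its Y box because GENCODE places it inside the first exon of H2-DMb1-201.

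TGATTGG occurred in the windows of 6 of the 7 matched genes, all but H2-DMa, against 7.80% of 32544 different promoter windows searched on both strands. An AAC followed by TGATTGG after a spacer of 20 to 30 bases occurred in the same 6 genes and in 1.06% of all windows. Counted from the AAC nearest the Y box within that range, the spacers were 26 bases in H2-Aa, H2-DMb1 and H2-DMb2. They were 25 in H2-Eb1, 23 in H2-Ob and 22 in H2-Oa. The H2-Oa line also holds an earlier AAC, printed in small letters, from which the spacer is 26 bases. The H2-Oa spacing thus depends on which AAC is taken. The shorter X box pattern AACNNATG was found in H2-Eb1, H2-DMb1, H2-DMb2 and H2-Ob, against 8.86% of windows. The full CREB-type site TGACGTCA was found in H2-Aa alone among them, against 1.80%. These letters and the spacer range were chosen after the sequences had been seen, and a match describes the sequence only. The windows of H2-DMb2, H2-Oa and H2-Ob, whose RNA was below 1 TPM (a level defined below), thus hold the same AAC and TGATTGG letters as those of H2-Aa and H2-Eb1.

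The 4 genes of the classical class II complex were abundant, H2-DM was intermediate, Ciita was low and the remaining 3 were near the limit of detection. Levels are given as TPM, a gene's length-corrected share of all transcripts in the library, which can be compared between genes. Of the 10 genes, 7 reached 1 TPM in all 3 libraries, against 48.5% of all genes with any count. Their median level was 46.5 TPM, and the median over all genes with any count was 1.26 TPM. The sum over the 10 genes was 1260, 957 and 1086 TPM in replicates 1, 2 and 3, and Cd74 alone made up 50.4%, 44.3% and 45.9% of it.

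**Figure D1:**
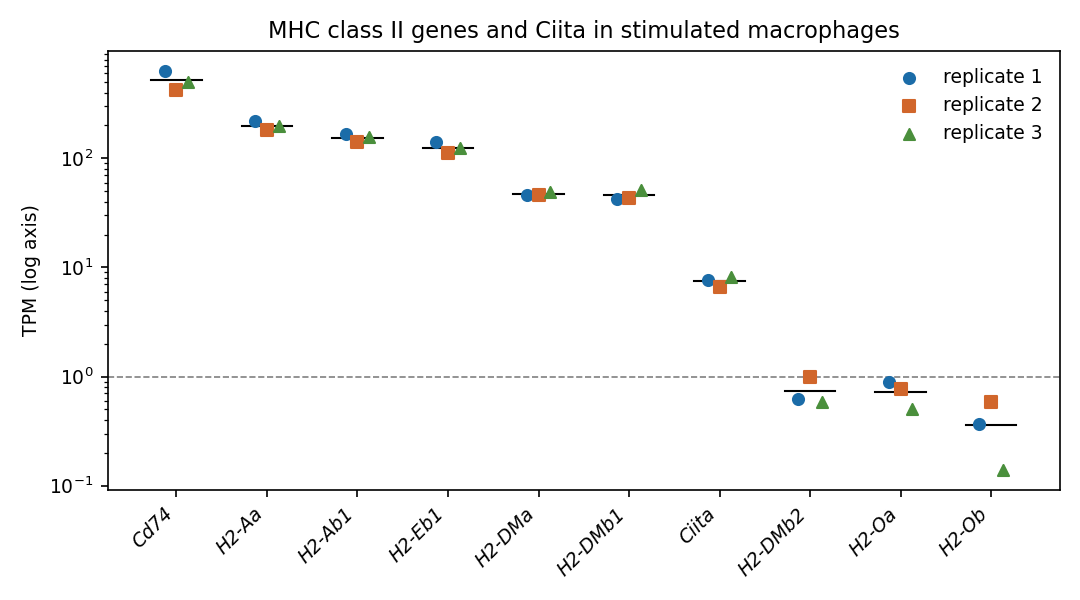
Level of each gene in TPM (log axis), with 1 symbol per library, a bar at the mean of 3 libraries and a dashed line at 1 TPM. Cd74 leads at 519 TPM, the 3 classical chains lie between 125 and 199.8 TPM, H2-DMa and H2-DMb1 lie near 46 TPM, Ciita lies at 7.46 TPM and the last 3 genes lie below 1 TPM.

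Cd74, the invariant chain that guides class II molecules to endosomes, had the highest level of the 10 genes. It stood at 634.88, 423.89 and 498.53 TPM in replicates 1, 2 and 3 (519 ± 107, SD, n = 3), which placed it 310th among all genes. Replicate 1 was high and replicate 2 low, 1.498-fold apart. The gene lies at chr18:60803848-60812652 on mm10.

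H2-Aa, the alpha chain of the I-A molecule, stood at 220.36, 182.67 and 196.37 TPM (199.8 ± 19.1, SD, n = 3). Its beta chain partner H2-Ab1 stood at 165.95, 140.24 and 156.77 TPM (154 ± 13.0, SD, n = 3). In each library the alpha chain was the higher of the pair, by 0.41, 0.38 and 0.32 on the log2 scale. That mean difference of 0.37 ± 0.04 (SD, n = 3), or 1.29-fold, exceeded 2 SD, the rule used here for calling a pair of genes apart. The 3 libraries of the 2 genes did not overlap. Differences between genes are on the log2(TPM + 0.1) scale, and no p is given because an exact sign-flip test over 3 libraries cannot go below 0.25.

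Cd74 exceeded both I-A chains in every library. The mean log2 difference was 1.36 ± 0.16 (SD, n = 3) from H2-Aa and 1.73 ± 0.18 from H2-Ab1, or 2.57-fold and 3.32-fold. Set against class I, H2-Ab1 was 33.6-fold lower than H2-K1, the heavy chain at 5187 ± 458 TPM (SD, n = 3). This log2 difference of -5.07 ± 0.08 (SD, n = 3) had a smaller SD than that of Cd74 and H2-Ab1 in the main tables. The order of the SDs was reversed in the second quantification, at 0.178 against 0.106. It was also reversed without replicate 1, at 0.099 against 0.052.

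H2-Eb1, the beta chain of I-E, stood at 141.16, 110.82 and 124.15 TPM (125 ± 15.2, SD, n = 3). It was lower than H2-Ab1 in all 3 libraries, by 0.30 ± 0.06 on the log2 scale (SD, n = 3), although the ranges of the 2 genes over the libraries overlap by 1 library: replicate 1 of H2-Eb1 lies above replicate 2 of H2-Ab1. C57BL/6 mice carry the b haplotype, in which no I-E alpha chain is made, and the alpha chain locus is annotated as the pseudogene H2-Ea-ps. H2-Ea-ps had 0 counts in all 3 libraries. With 3 counts as the floor in each library, its level was below 0.287, 0.222 and 0.162 TPM, and H2-Eb1 was at least 492-fold, 500-fold and 765-fold higher. H2-Eb2, a second I-E beta gene next to H2-Eb1, had 3, 16 and 8 counts and a mean level of 0.12 TPM. H2-Eb1 exceeded it by 9.22 ± 0.70 on the log2 scale (SD, n = 3). This size depends on the pseudocount, since H2-Eb2 lies near 0.1 TPM: it was 6.81 with a pseudocount of 1 and 10.11 with 0.01. The pseudogenes H2-Pa and H2-Pb also had 0 counts, which allows up to 0.394 and 0.67 TPM in the shallowest library. These floors cover counting error only.

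H2-DMa, the alpha chain of the peptide editor, stood at 46.06, 46.41 and 48.85 TPM (47.1 ± 1.52, SD, n = 3). Its highest library was 1.06-fold above its lowest, the smallest such ratio of the 10 genes in these tables. The second deposited quantification of the same libraries gave it 34.6, 41.4 and 38.0 TPM, a ratio of 1.20, against 1.05 for either I-A chain. Its beta chain can come from H2-DMb1 or H2-DMb2. H2-DMb1 stood at 42.14, 43.65 and 51.61 TPM (45.8 ± 5.09, SD, n = 3), with replicate 3 highest. The alpha chain and the sum of both beta chain genes did not differ beyond their spread, at 0.02 ± 0.11 on the log2 scale (SD, n = 3), with the alpha chain higher in 2 of 3 libraries. Without replicate 3 that difference was 0.081 and passed the rule.

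H2-DMb2 stood at 0.62, 0.99 and 0.59 TPM (0.733 ± 0.223, SD, n = 3), on 12.5, 26.5 and 21.5 expected counts. It was 56.1-fold lower than H2-DMb1, at -5.81 ± 0.45 on the log2 scale (SD, n = 3), or -4.76 with a pseudocount of 1. The 2 genes are near copies: the coding sequences of H2-DMb1-201 and H2-DMb2-201 are both 783 bases long, align without a gap and differ at 32 positions (95.9% identity). To show how reads can be told apart, coding bases 208 to 267 are printed below, the 60-base stretch with the most differences, with the 17 differing bases in capitals.
H2-DMb1-201: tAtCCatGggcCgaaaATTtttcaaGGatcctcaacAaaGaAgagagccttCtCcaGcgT
H2-DMb2-201: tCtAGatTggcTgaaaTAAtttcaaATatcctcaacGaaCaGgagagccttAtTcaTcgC
They lie at chr17:34155585-34155644 and chr17:34147803-34147862 on mm10, within exons. Of all 31-base words of H2-DMb1-201, 37.6% also occur in an H2-DMb2 transcript, so reads of that length from there match both genes. The deposited error of this assignment was 0.72, 0.75 and 0.71 counts for either gene, against 12.5, 26.5 and 21.5 counts for H2-DMb2. That error does not cover the choice of quantification: the second put 22.7, 30.9 and 38.8 counts on H2-DMb2 (0.805 ± 0.167 TPM, SD, n = 3). With so few counts its level is imprecise, and it is reported as uncertain for that reason and for the shared sequence.

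The inhibitor chains were at the edge of detection. H2-Oa stood at 0.89, 0.77 and 0.5 TPM on 13, 15 and 13 counts (0.72 ± 0.200 TPM, SD, n = 3), and H2-Ob at 0.37, 0.58 and 0.14 TPM on 8, 13 and 9 counts (0.363 ± 0.220 TPM, SD, n = 3). H2-Oa was higher than H2-Ob in all 3 libraries, by 0.92 ± 0.50 on the log2 scale, which is below 2 SD, so they were not told apart. They passed the rule without replicate 2, at 1.20, and in the second quantification, at 0.67 ± 0.30 (SD, n = 3). The editor stood far above its inhibitor. H2-DMa exceeded H2-Oa 58.8-fold, at 5.88 ± 0.42 on the log2 scale (SD, n = 3), and the summed beta chains exceeded H2-Ob 109-fold, at 6.77 ± 0.89. With a pseudocount of 1 these log2 differences were 4.81 and 5.13, so the folds hold for a pseudocount of 0.1 only.

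Ciita stood at 7.62, 6.57 and 8.19 TPM (7.46 ± 0.822, SD, n = 3) on 625, 663 and 1229 counts, which ranked it 6561st among all genes. Among its partners on the X box are the 3 RFX subunits. Rfx5 stood at 11.86, 10.84 and 10.6 TPM and was higher than Ciita in every library, by a mean of 0.57 on the log2 scale (Ciita minus Rfx5 -0.57 ± 0.18, SD, n = 3). Rfxank, at 3.51 ± 0.480 TPM (SD, n = 3), was lower than Ciita in every library, with a log2 difference of 1.07 ± 0.33. Rfxap, at 9.15, 12.22 and 6.6 TPM, was not told apart from Ciita (-0.28 ± 0.60, SD, n = 3). Without replicate 2 that mean was 0.02.

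In the order of mean levels, each gene was apart from its neighbour in 6 of the 9 steps. The steps that did not exceed their spread were H2-DMa to H2-DMb1, H2-DMb2 to H2-Oa and H2-Oa to H2-Ob. The step from H2-DMb1 down to Ciita was 2.60 ± 0.14 on the log2 scale (SD, n = 3) and the step from Ciita to H2-DMb2 was 3.21 ± 0.52.

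Of the 10 genes, 8 lie in a stretch at chr17:34092340-34344645 that holds 22 annotated genes, 14 of them protein coding. Ciita lies at chr16:10480059-10528418. Among its coding genes, H2-Oa at 0.72 TPM is followed by Brd2, a chromatin reader at 209 TPM, then H2-DMa, the low H2-DMb2 and the much higher H2-DMb1. The class I peptide supply genes come next: Psmb9 at 221 TPM, Tap1 at 503, Psmb8 at 880 and Tap2 at 217. H2-Ob at 0.363 TPM lies between Tap2 and H2-Ab1, and H2-Eb2 and H2-Ea-ps close the stretch to the right of H2-Eb1. Every class I supply gene of the stretch was higher in mean level than every class II gene in it. In replicate 1, however, H2-Aa at 220.36 TPM was above Psmb9 at 208.39 TPM.

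**Figure D2:**
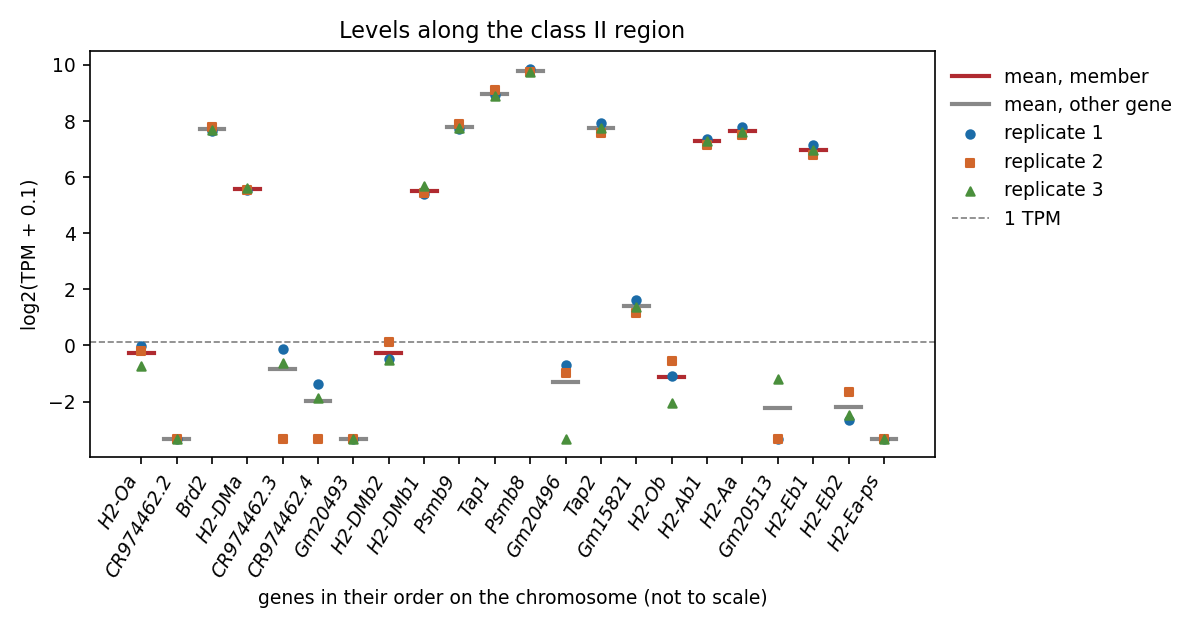
Levels as log2(TPM + 0.1) of the 22 genes between H2-Oa and H2-Ea-ps, in chromosome order and not to scale, with 1 symbol per library and a bar at the mean (red for the class II genes described here). H2-DMb2 at 0.733 TPM sits beside H2-DMb1 at 45.8 TPM, and H2-Ob at 0.363 TPM sits beside H2-Ab1 at 154 TPM.

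Some of these genes overlap others on the opposite strand, and whether the counting used strand is not given in the sources used here. Brd2 overlaps the annotated span of H2-DMa by 3094 bases, and Dexi, a gene at 7.11 TPM, overlaps that of Ciita by 25888 bases. Brd2 ends at chr17:34122634, before the starts of H2-DMa-205 and H2-DMa-201, and the H2-DMa transcripts that reach into it, H2-DMa-206 and H2-DMa-208, held 0% and 0.537% of the gene. For Ciita and Dexi, reads in any shared exons cannot be told apart without strand. The overlapping antisense genes Gm20513 (H2-Eb1) and BC051537 (H2-Oa) had mean levels of 0.113 and 0.0233 TPM.

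Transcript shares, given as the percent of a gene's TPM on each annotated transcript, were simple for most of the genes. H2-Aa-201 held 99.5 ± 0.0751% (SD, n = 3) of H2-Aa, H2-Ab1-201 held 95.4 ± 0.905% of H2-Ab1 and H2-DMb1-201 held 100% of H2-DMb1. H2-DMa was led by H2-DMa-205, with 88.71%, 85.05% and 90.24%. That transcript starts 12796 bases downstream of H2-DMa-201, which held 7.76 ± 1.57% (SD, n = 3). H2-Oa was led by H2-Oa-201 with 87.5 ± 4.79%, and H2-Oa-202, a retained intron form, held 12.5 ± 4.79% on 1.7, 3.04 and 1.26 counts. The same transcript led in all 3 libraries in 7 of the 10 genes, the exceptions being H2-Eb1, H2-DMb2 and H2-Ob. For H2-DMb2, H2-Oa and H2-Ob the shares rest on under 30 counts per library, and those of H2-DMb2 and H2-Ob swing widely. H2-DMb2-203 held 100%, 26.1% and 76.45% and H2-DMb2-201 the rest. H2-Ob-201 held 41.43%, 0% and 67.06%, H2-Ob-204 held 58.57%, 26.19% and 0%, and H2-Ob-205 held 0%, 29.13% and 32.94%.

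Cd74 gave 2 main transcripts, which differ by 1 exon. Cd74-201 encodes the shorter form of the invariant chain and held 80.93%, 76.91% and 80.35%. Cd74-202 held 18.46%, 22.58% and 19.35% (20.1 ± 2.17%, SD, n = 3), or 117, 95.7 and 96.5 TPM (103 ± 12.2 TPM). In the second quantification Cd74-202 held 24.7 ± 2.76% (SD, n = 3). The extra coding exon of Cd74-202, chr18:60811294-60811485, is 192 bases or 64 codons long and keeps the reading frame. This exon encodes the thyroglobulin type 1 domain of the longer form, known as an inhibitor of cathepsin L.

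H2-Eb1 stood apart from the other abundant members in how its TPM was divided. Transcripts annotated as protein coding held 19.17%, 28.09% and 23.59% of it (23.6 ± 4.46%, SD, n = 3), or 29.2 ± 2.03 TPM. The second quantification gave them 18.3 ± 6.09% (SD, n = 3). In Cd74, H2-Aa, H2-Ab1, H2-DMa, H2-DMb1 and Ciita the coding share was 95.5% or more on average. The leading H2-Eb1 transcript was H2-Eb1-205 (annotated for nonsense-mediated decay) in replicate 1, with 37.75%, against 28.74% and 32.23% in replicates 2 and 3. In those libraries H2-Eb1-204, a retained intron form, led with 38.73% and 39.39%, against 31.6% in replicate 1. The full-length coding transcript H2-Eb1-203 held 18.87%, 27.94% and 23.22%. No library overlapped between the coding share of H2-Eb1 and that of any of those 6 genes.

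The start of exon 2 is printed here because the coding form and the decay form differ there, as they also do at both ends. At the junction of exons 1 and 2 (chr17:34306036-34309655 on mm10, intron left out), H2-Eb1-203 contains 53 bases (capitals) that H2-Eb1-205 skips.
H2-Eb1-203: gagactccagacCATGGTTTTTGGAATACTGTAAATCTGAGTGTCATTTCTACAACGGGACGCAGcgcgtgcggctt
H2-Eb1-205: gagactccagaccgcgtgcggctt
The 53 bases, chr17:34309591-34309643 at the start of exon 2, leave 2 bases over after whole codons, so that skipping them shifts the reading frame. H2-Eb1-203 also extends 475 bases further at its 3′ end (chr17:34316200-34316674), and H2-Eb1-204 keeps 132 bases of intron after exon 3 (chr17:34314452-34314583). No annotated coding transcript combines the splicing of H2-Eb1-203 with the shorter 3′ end of H2-Eb1-205. The part of this annotation in the shares was not tested.

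**Figure D3:**
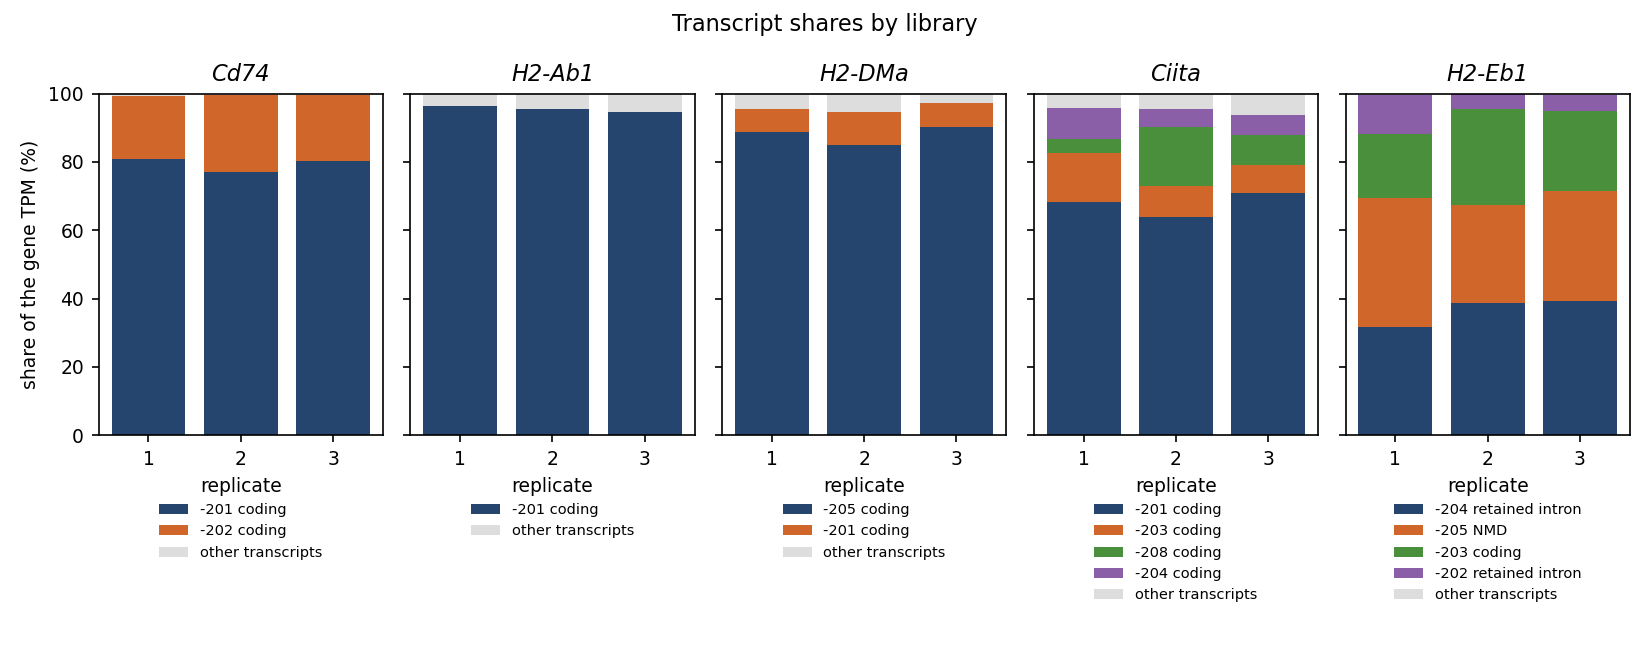
Share of the TPM of 5 genes on each transcript (percent, stacked to 100) in each of the 3 libraries, with transcripts under 4% on average pooled in grey and NMD standing for nonsense-mediated decay. H2-Ab1-201 holds 95.4% on average, whereas H2-Eb1 is split among 4 forms, with 23.3% on H2-Eb1-203.

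Ciita is known for alternative first exons driven by separate promoters: pI, used in dendritic cells and some macrophages, pIII, used in B cells and plasmacytoid dendritic cells, and pIV, the interferon gamma responsive promoter of other cells. Its 8 annotated transcripts fall into 3 groups of starts, which are called here by the promoter positions pI, pIII and pIV from their order along the chromosome alone. The group at the pI position starts at chr16:10480059, the next starts 8119 bases on and the last 1568 bases further. Because their first exons give CIITA different amino ends, the last 42 coding bases of each first exon are shown in capitals, followed by the shared exon 2.
Ciita-205: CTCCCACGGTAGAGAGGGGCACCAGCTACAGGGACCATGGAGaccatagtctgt
Ciita-201: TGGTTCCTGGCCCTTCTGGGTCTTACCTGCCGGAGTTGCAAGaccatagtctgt
Ciita-203: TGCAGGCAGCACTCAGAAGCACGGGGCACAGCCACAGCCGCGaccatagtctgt
The coding part of the first exon is 283 bases in Ciita-205 (pI position), 52 bases in Ciita-201 (pIII position) and 43 bases in Ciita-203 (pIV position). The stretches end at chr16:10480426, chr16:10488424 and chr16:10489864 in the first exons.

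Transcripts starting at the pIII position held 69.4%, 65.7% and 74.0% of Ciita (69.7 ± 4.16%, SD, n = 3). Those at the pIV position held 27.4%, 31.7% and 22.7% (27.3 ± 4.49%, SD, n = 3), and those at the pI position 3.16%, 2.65% and 3.32%. The 3 groups did not overlap. The second quantification kept their order but gave 55.7 ± 3.52%, 38.9 ± 3.94% and 5.40 ± 0.649% (SD, n = 3). Ciita-201 made up most of the pIII group, with 67.6 ± 3.66%. Ciita-203 held 10.6 ± 3.45% and Ciita-208, a short fragment on 2.27, 10.4 and 9.34 counts, held 10.05 ± 6.56%. Ciita-201 alone carries 1992 further bases at its 3′ end (chr16:10526427-10528418). Counts there go to Ciita-201 whichever first exon the RNA had, so the shares do not measure promoter use directly.

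Variation between the libraries was tested with a chi-square test on expected counts after TMM scaling, Benjamini-Hochberg adjusted over the 12414 genes whose mean count was 10 or more. At an adjusted p under 0.05, 6 of the 10 genes varied beyond counting error, against 70.9% of all genes tested. They were Cd74, H2-Aa, H2-Ab1, H2-Eb1, H2-DMb1 and Ciita. H2-DMa (adjusted p = 0.053), H2-DMb2 (0.199), H2-Oa (0.319) and H2-Ob (0.374) did not pass. Single libraries decided some of these calls: H2-DMb1 did not pass without replicate 3 (adjusted p = 0.790), Ciita did not pass without replicate 2 (0.307), and H2-DMa passed without replicate 1 (0.0208). In the main tables, only H2-Ob was 2-fold or more apart between its highest and lowest library (4.14-fold, on 8 to 13 counts), against 18.8% of all genes, and 7 of the 10 stayed below 1.5-fold, against 57.9%. The median ratio of highest to lowest library was 1.26 for the 10 genes and 1.41 for all genes tested.

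The coefficient of variation of TPM was 20.6% for Cd74 and 3.23% for H2-DMa, with a median of 18.03% over all genes tested. Cd74 thus lay at the 56.7th percentile and H2-DMa at the 3.20th. H2-Aa (9.55%), H2-Ab1 (8.44%), H2-Eb1 (12.1%), H2-DMb1 (11.1%) and Ciita (11.0%) lay between those of H2-DMa and Cd74.

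**Figure D4:**
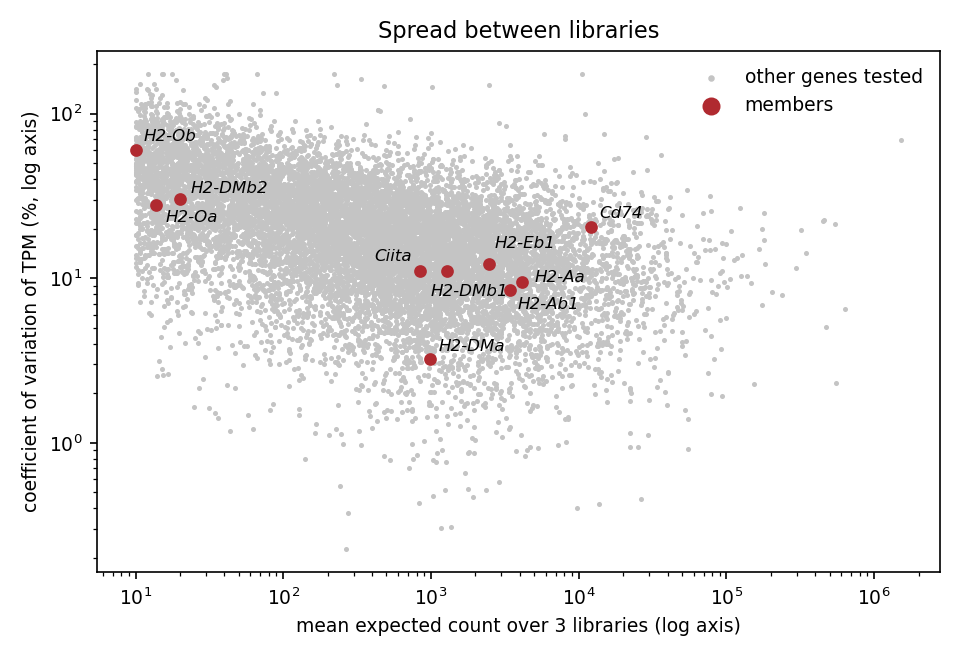
Coefficient of variation of TPM over the 3 libraries (percent, log axis) against mean expected count (log axis) for the genes tested, with the 10 class II genes in red. H2-DMa lies low at 3.23%, Cd74 lies at 20.6%, and the 3 genes with few counts lie above 27%.

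Cd74, H2-Aa, H2-Ab1 and H2-Eb1 were all highest in replicate 1 and lowest in replicate 2, and Ciita was also lowest in replicate 2. H2-DMa and H2-DMb1 were instead lowest in replicate 1 and highest in replicate 3. In all, 5 of the 10 genes were highest in replicate 1, 2 in replicate 2 and 3 in replicate 3, against 30.7%, 45.2% and 24.2% of all genes tested. The lowest library was replicate 1 for 2 of them, replicate 2 for 5 and replicate 3 for 3, against 41.3%, 32.1% and 26.5%. The second quantification kept the order of the libraries for Cd74, H2-DMb1 and H2-Ob and changed it for the others. There Cd74 stood at 454, 378 and 395 TPM, but H2-Aa stood at 152, 159 and 152 TPM and Ciita at 6.39, 7.04 and 7.94 TPM. Only 1 of the 10 genes, Cd74, was lowest in replicate 2. The ratio of highest to lowest library fell there from 1.498 to 1.20 for Cd74 and from 1.21 to 1.05 for H2-Aa, and rose from 1.22 to 1.43 for H2-DMb1 and from 1.06 to 1.20 for H2-DMa. It was 2.12 for H2-Oa and 1.87 for H2-Ob, so that H2-Oa was there the gene past 2-fold. The second quantification gave lower TPM than the first by a library-dependent amount over all genes, with median log2 differences of -0.37, -0.07 and -0.22 in replicates 1, 2 and 3.

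Replicate 2 stood apart in neutrophil markers. All 8 of them were highest there, against 45.2% of all genes tested. Their summed level was 22.9, 421 and 21.4 TPM in replicates 1, 2 and 3. S100a9 led them at 14.8, 237 and 12.4 TPM. The neutrophil markers Mpo, Elane and Ly6g had 0 counts in replicates 1 and 3 and only 28, 6 and 2 counts in replicate 2. These were too few to be tested, so 5 of the 8 neutrophil markers were among the genes tested. Of 8 dendritic cell markers, 6 were highest in replicate 2, against the same 45.2%, with sums of 15.1, 32.1 and 14.9 TPM. The migration receptor Ccr7 led them at 4.16, 17.8 and 4.68 TPM, followed by Batf3 at 7.59 ± 0.813 TPM (SD, n = 3), and the lowest were Flt3 (0.0867 TPM) and Cd209a (0.05 TPM). Of 8 B cell markers, 6 were highest in replicate 2, again against 45.2%, with sums of 12.4, 15.4 and 12.4 TPM. Nearly all of that was Cd22, at 12.3 ± 1.24 TPM (SD, n = 3), and Cd79b followed at 0.847 TPM. Only these 2 had enough counts to be tested, and Cd22 did not vary beyond counting error (chi-square test, adjusted p = 0.176). The B cell genes Cd79a, Ms4a1, Pax5, Blk and Fcer2a had mean levels of 0.07 TPM or less. Of 6 T cell markers none reached 1 TPM in all libraries, with sums of 0.06, 0.87 and 0.29 TPM, and Cd3d and Cd3g had 0 counts. All 8 macrophage markers were detected, from Lyz2 (12916 TPM) and Cd68 (2617 TPM) down to Mertk (123 TPM) and Itgam (65.1 TPM), with sums of 21243, 16752 and 18121 TPM. The part of other cells in the class II levels was not tested. In bulk RNA, more cells of a type and more RNA per cell cannot be told apart. Without replicate 2 the means were 567 TPM for Cd74, 208 for H2-Aa, 161 for H2-Ab1, 133 for H2-Eb1 and 7.91 for Ciita, each within 1 SD of the mean of 3. Of the 9 genes that could then be tested (all but H2-Ob), 5 still varied between replicates 1 and 3.

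The wider pathway was read from gene lists. Of 22 transcriptional regulators of class II, 19 reached 1 TPM in all libraries, and the list median was 17.6 TPM. Among those reported here, the myeloid factor Spi1 stood at 555 ± 32.4 TPM (SD, n = 3), Irf1 at 476, Irf8 at 155, the receptor chain Ifngr2 at 146 and Irf2 at 97.7 TPM. The lymphoid factor Irf4 (0.333 TPM) and the dendritic cell factor Zbtb46 (0.187 TPM) were low. Ifng, the cytokine that induces Ciita through pIV, had 0.18, 3.25 and 0 TPM on 3, 53 and 0 counts, so that it was high in replicate 2, where Ciita was lowest by the main quantification only. Between libraries, 18 of these 22 varied beyond counting error by the chi-square test, against the same 70.9% of all genes. Those that did not pass were Rfx5 (adjusted p = 0.0981), Rfxank (0.813), Irf4 (0.775) and Nfyc (0.818).

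The 11 genes of endosomal peptide supply all passed 1 TPM, and their median was 1116 TPM. The proteases Ctsb (9348 TPM), Ctsd (6663) and Ctss (3590), the last of which trims the invariant chain, led the list, followed by Ctsz (1947), Lgmn (1287) and the protease inhibitor Cst3 (1116). The lowest were Unc93b1 (498 TPM), Sppl2a (277 TPM), which clears the invariant chain stub, and Ifi30, the thiol reductase of antigen processing. Ifi30 stood at 27.8, 49.96 and 32.4 TPM, highest in replicate 2. Ctss thus stood above its substrate Cd74 in each library, at 3843, 3042 and 3885 TPM.

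The 12 listed genes of surface control also all passed 1 TPM, and their median was 89.9 TPM. They were led by the tetraspanin Cd63 (1141 TPM), then Cd83 (303 TPM), which shields class II from ubiquitination, Mif (210), a ligand of surface CD74, Cd44 (160), Cd9 (142) and March1 (110), the ligase that ubiquitinates class II. March1 stood at 125, 91.9 and 111 TPM, and Cd83 at 302, 358 and 249 TPM, so that replicate 2 was lowest for the first and highest for the second. The lowest were Cd82 (48.4 TPM), March8 (33.2) and Cxcr4 (2.38). The 4 costimulation genes stood at 1423 ± 373 TPM for Cd40, 1099 ± 118 for Cd274, 139 ± 40.4 for Cd86 and 13.0 ± 0.910 for Cd80 (SD, n = 3). The 6 class I genes ran from B2m (12081 TPM), H2-K1 and H2-D1 (4409) through Tapbp (1050) and Tap1 (503) to Nlrc5 (231), the class I counterpart of Ciita.

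**Figure D5:**
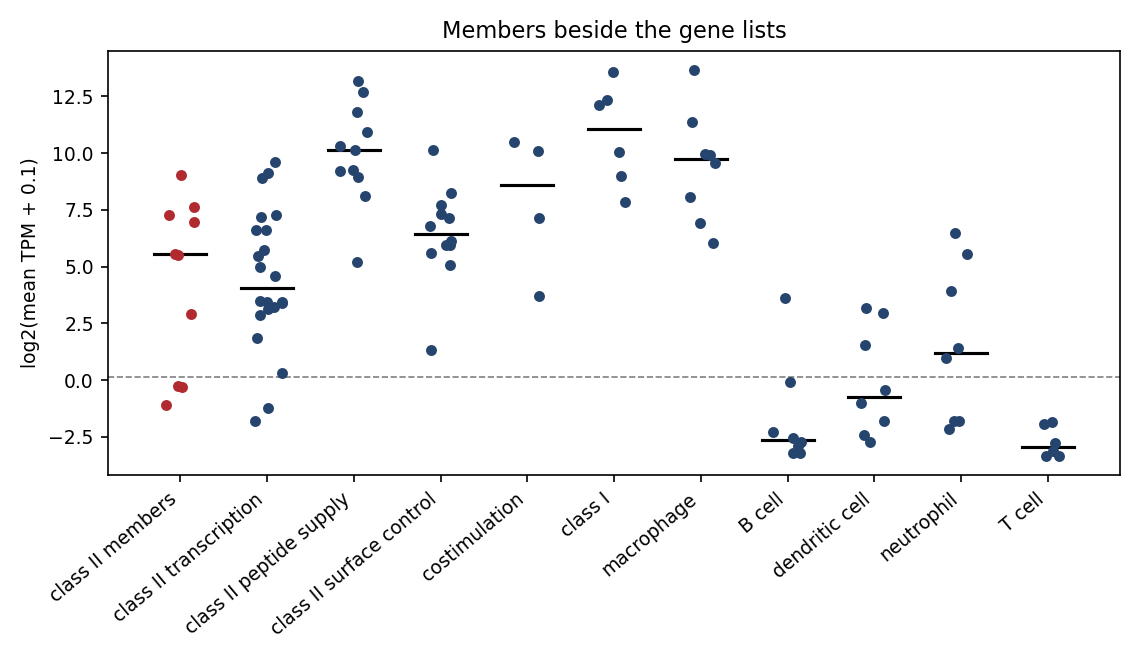
Mean level of each gene as log2(mean TPM + 0.1), by list, with a bar at the median of the list and a dashed line at 1 TPM. The median of the 10 class II genes (red, 46.5 TPM) lies below that of the peptide supply genes (1116 TPM), and 7 of the 8 B cell markers lie below 1 TPM.

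The genes whose levels followed Cd74 most closely over the 3 libraries were the zinc finger genes Zfp131 and Zmym5 and the kinase Dyrk1b, at a root mean square distance of 0.003, 0.0037 and 0.0057 between centred log2 levels among 9075 genes. Those nearest to Ciita were Coro1c (0.0017), Maml1 (0.0035) and Ankib1 (0.004). None of these 6 is a class II gene. At a much wider limit many genes were close over the 3 libraries: 575 genes lay within 0.1 of Cd74 and 1082 within 0.1 of Ciita. How common distances as small as those of the 6 genes are was not tested. The class II gene nearest to Cd74 was H2-Eb1, at rank 538 (distance 0.098), and the nearest to Ciita was H2-Ab1, at rank 707 (distance 0.0807). All these distances come from the main quantification only. In the second, Ciita followed another course, at 6.39, 7.04 and 7.94 TPM in replicates 1, 2 and 3. Its nearest genes there were not sought.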

How the data were processed

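Polyadenylated RNA of 3 macrophage libraries was quantified on mm10 with GENCODE M21, per the readme deposited with each sample. The sources used here do not name the programs, their versions, the read length or the strand setting. According to the readme and per the file headers, the gene and transcript tables were made from a transcriptome alignment. Their deposited expected counts are fractional and unscaled, their deposited TPM values are corrected for length and sum to the same total in each library, and their deposited FPKM values are counts over effective length and sequencing depth. The deposited percent values give each transcript's share of its gene's TPM. A second quantification, made without an alignment file per the deposited readme, gave estimated counts and TPM per transcript, which were summed per gene.

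Genes were joined by identifier. Expected counts were rounded for the chi-square test (2 degrees of freedom, TMM scaling, mean count of at least 10). Log2 values use TPM + 0.1. A gene was called detected at 1 TPM or more in all libraries, and 2 genes were called apart at the same sign in 3 of 3 libraries and a mean above 2 SD. Between pairs of libraries, 43.5% to 64.1% of genes differed beyond counting error, so none was counted as a duplicate. Named genes are the 10 members, the paired genes, up to 6 highest and 3 lowest genes of each list (2 and 2 for cell markers), 3 most alike genes for Cd74 and for Ciita, and transcripts of at least 10% or leading. Some genes that meet this rule are left out of the text. Other cell markers were named after their values were seen, as were Brd2, the class I supply genes of the locus, Dexi and Nfyc. The members and lists were chosen with earlier results of these data known. Sequences came from GENCODE M21 transcripts and RefSeq promoters (GRCm38.p6). The test was checked on counts simulated with counting error only and scaled by library totals. Such counts do not show how it performs on these libraries. Computation used Python 3.11.15 with scipy 1.17.1, numpy 2.4.6, matplotlib 3.10.9 and pandas 2.3.3, and R 4.3.3 with DESeq2 1.42.0 and edgeR 4.0.16. Alternatives were each library left out, the second quantification, pseudocounts of 0.01 and 1, TPM without mitochondrial and ribosomal RNA, FPKM with TMM scaling, DESeq2 size factors, library totals, and other count minimums and reference genes.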

Additional observations from a re-analysis of the deposited data

How the results depend on the processing

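There were 187 comparisons of a main result with an alternative, leaving aside levels, adjusted p-values and transcript shares of single genes. Of the 187, 177 left called results on their side of the threshold, counts within 1.5 times and the median level within 1 SD. Among these, pair differences that were not called changed sign with a library left out: H2-DMa minus its summed beta chains (-0.020 without replicate 1) and Ciita minus Rfxap (0.02 without replicate 2). The median log2 level of the 10 genes, taken in each library, exceeded that of all genes with any count by 5.16, and by 4.59 to 4.87 with a library left out, which changes the genes with a count. It was 6.42 in the second quantification, 4.43 with a pseudocount of 1 and 1.74 against genes of at least 1 TPM. H2-Oa and H2-Ob came apart in the second quantification (log2 difference 0.67), with a pseudocount of 1 (0.34) and without replicate 2 (1.20, with a range of 0.72 to 1.20 over the libraries left out). H2-DMa came apart from its summed beta chains without replicate 3 (0.081, with a range of -0.020 to 0.081). Of 176 comparisons for single genes, 150 stayed the same, 22 values moved beyond 1 SD, 2 calls were lost and 2 gained. In the second quantification the levels of Cd74, H2-Aa, H2-Ab1, H2-Eb1, H2-DMa and H2-DMb1 moved down (Cd74 from 519 to 409 TPM). Those of H2-DMb2, H2-Oa, H2-Ob and Ciita did not move. Among the shares that moved there, Ciita-201 fell from 67.6% to 52.6%. H2-DMb1 no longer varied between libraries without replicate 3 (adjusted p = 0.790), whereas H2-DMa did without replicate 1 (0.0208) and among genes averaging 100 counts or more (0.0470). FPKM with TMM scaling is on another scale, so its values were lower throughout (Cd74 348). No paired analysis was possible because there is only 1 group. No gene could be set against unstimulated cells, and under 30 counts per library limit H2-DMb2, H2-Oa and H2-Ob.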
